A study of Mus musculus with 12 samples.

Results

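The core clock genes were followed in mice that lack Mettl5 and in their controls: Arntl (also called Bmal1), Clock, Npas2, Per1, Per2, Per3, Cry1, Cry2, Nr1d1 and Nr1d2. They were chosen by symbol from general knowledge of the mammalian clock, and all 10 were found among the 55487 genes of the count table. Liver and brain of 6 mice had been taken for total RNA sequencing, which gave 4 groups of 3 libraries: KO liver and KO brain from mice A, C and F, and WT liver and WT brain from mice B, D and E. The KO mice carry a deletion of exon 2 of Mettl5, the gene of an 18S rRNA methyltransferase. The deletion was made from a conditional allele in embryonic stem cells that were a hybrid of C57bl/6 with another strain, the line was backcrossed to B6, and Cre under the CMV promoter deleted the exon in the whole body. The labels call the controls WT, but the study's text describes heterozygous mice as the partners of the KO mice in its RNA sequencing. A supplementary legend of the study names a wild-type and a KO littermate for such reads, and the title of a supplementary table also says wild type. WT is used here only as the labels use it. Nothing in the labels tells when a mouse was killed, whether it had fed, its age, sex or litter, or which libraries were made together. The study's methods say that mice of both sexes and a range of ages from weeks to months were used over the whole study, without giving them for each mouse. In the counts, Y-linked and Xist transcripts mark WT mouse E and KO mouse F as female and the other mice as male.

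The clock is a transcriptional feedback loop that most cells run. CLOCK, or its relative NPAS2, pairs with ARNTL and binds E-boxes to switch on the Per, Cry and Nr1d genes, and the PER and CRY proteins then return to the nucleus and repress that same pair. A second loop acts on Arntl itself, which NR1D1 and NR1D2 (REV-ERB alpha and beta) repress and the ROR receptors activate through the same elements. The liver clock is known to follow feeding strongly, and in both organs the transcripts of the activators and of the Per and Nr1d genes peak at different times of day, so the level of a member in a single sample depends on when that sample was taken.

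Stretches of the members' promoters that hold the elements of these loops are shown first, since through them the members act on each other. They were read from RefSeq windows on GRCm38.p6, which run from 250 bases before to 50 after a gene's start. Windows were found for 9 of the 10 members (13 windows in all), and Per2 had none. Capitals mark the motifs, which were searched on both strands, each sequence runs 5′ to 3′ on the gene's own strand, and positions count from the start that RefSeq gives for the window. For Per1 that start lies downstream of the gene's first base in the count table (69095217).
Per1, chr11:69098759-69098818, plus strand, positions -190 to -131: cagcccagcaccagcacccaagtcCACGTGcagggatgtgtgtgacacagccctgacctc
Cry1, chr10:85185085-85185144, minus strand, positions -90 to -31: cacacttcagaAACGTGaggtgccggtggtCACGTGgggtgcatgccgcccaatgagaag
Cry2, chr2:92434200-92434259, minus strand, positions -190 to -131: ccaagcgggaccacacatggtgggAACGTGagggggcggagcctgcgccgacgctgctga
Nr1d1, chr11:98775378-98775437, minus strand, positions -60 to -1: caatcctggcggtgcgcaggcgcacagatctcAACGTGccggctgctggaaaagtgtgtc
Per3, chr4:151044796-151044885, minus strand, positions -220 to -131: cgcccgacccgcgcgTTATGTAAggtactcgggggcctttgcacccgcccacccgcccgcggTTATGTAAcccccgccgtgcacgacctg
Arntl, chr7:113207529-113207558, plus strand, positions 19 to 48 of its second listed start: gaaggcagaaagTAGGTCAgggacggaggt

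The E-box CACGTG was found in the windows of Per1 and Cry1, and the variant CACGTT in those of Cry1, Cry2 and Nr1d1, where it lies on the opposite strand and so reads AACGTG above. Of all 32851 RefSeq windows, 7.15% hold CACGTG and 4.68% hold CACGTT. Per3 carried the D-box TTATGTAA at positions -205 and -158, an element bound by DBP, TEF, HLF and NFIL3, and 0.938% of all windows hold these letters. A downstream window of Arntl held TAGGTCA, the core of the element shared by the ROR and REV-ERB receptors, which 2.61% of windows hold. The other letters searched, TTACGTAA (in 0.119% of windows) and TGGGTCA (in 3.98%), were in no member's window, and the windows of Clock, Npas2 and Nr1d2 held none of the motifs. A match is a description of the sequence only, and its absence from a short window says nothing of the factor.

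The libraries held from 14403309 to 21623180 counts, and the members had from 29 reads (Per3 in the liver of WT mouse B) to 3079 (Clock in the brain of WT mouse E). Values are given as CPM, counts scaled to library size after TMM normalisation within a tissue, unless another scale is named. The targeted gene, Mettl5, measured 14.9, 8.13 and 8.35 CPM in the livers of WT mice B, D and E and 3.86, 3.64 and 4.07 CPM in those of KO mice A, C and F, and in brain 9.09, 5.87 and 5.02 against 3.33, 3.96 and 3.82 CPM. All KO libraries were thus below all WT libraries in both tissues, and the counts, which cover all exons, do not single out exon 2. Hepatocyte markers (6 genes) summed to between 63740 and 86670 CPM in every liver library and to at most 35.5 CPM in brain, and neuron markers (6 genes) to between 2839 and 3281 CPM in brain and at most 16.7 CPM in liver, as the labels have it. In brain, Six6, Prok2, Vip, Avp, Rgs16 and Lhx1, markers of the suprachiasmatic nucleus, which holds the central pacemaker, summed to between 25.4 and 38.3 CPM in WT and between 19.4 and 24.4 CPM in KO brains, with 1 of the 6 wholly lower in KO. In liver 5 of these 6 suprachiasmatic genes were at or under 3 counts, yet their sum ran up to 17.1 CPM in WT livers. In KO livers the highest sum lay within the range of WT brains, so the sum is not specific to this nucleus. In bulk tissue, fewer cells of a type and less RNA per cell cannot be told apart.

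To compare levels between genes, CPM were divided by the exon length in kilobases, with one TMM scaling over all 12 libraries. Nr1d1 led the order in WT liver with 16.9 ± 7.43 CPM per kb (SD, n = 3), followed by Nr1d2 at 12.5 ± 4.69 and Clock at 8.99 ± 0.599. Per3 came last in both liver groups, at 1.07 ± 0.966 in WT and 0.348 ± 0.0988 in KO liver. In brain the lead passed to Nr1d2, with 15.4 ± 2.03 CPM per kb in WT and 14.3 ± 0.579 in KO brain, followed by Cry2 at 12.7 ± 2.04 and 11.0 ± 2.45, and Per2 was last at 3.07 ± 0.921 and 2.38 ± 0.973. In the WT groups the libraries of neighbours in these orders mostly overlapped: in WT liver only Per3 lay wholly below the gene above it, and in WT brain only Per3 lay wholly below Arntl. In KO liver Cry2, Per1 and Per3 lay wholly below the gene above them, and in KO brain Cry2, Npas2, Arntl and Per3 did. Arntl was at rank 6 in WT liver, rank 4 in KO liver and rank 8 in both brain groups.

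**Figure D1:**
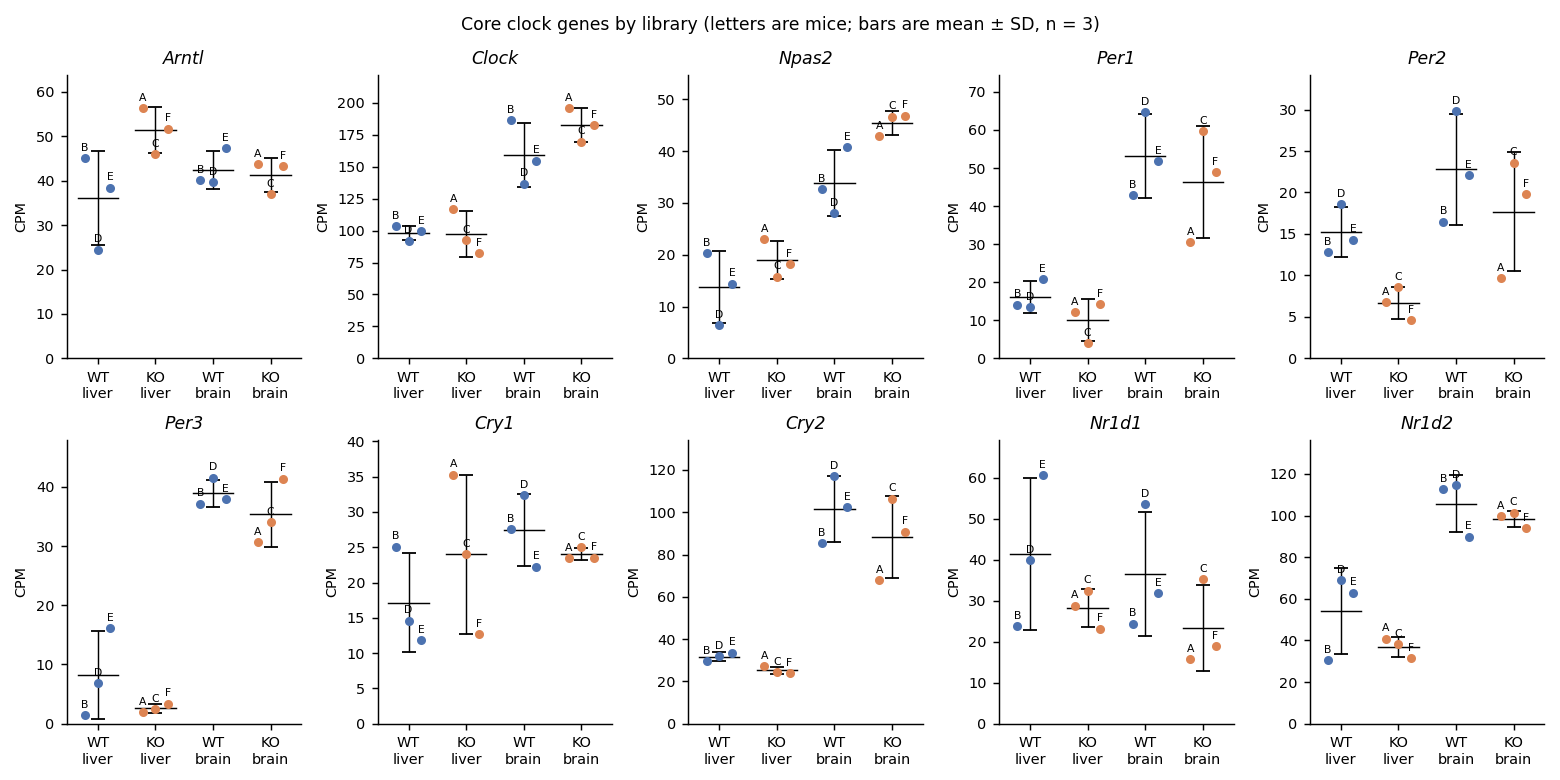
CPM (y axis, from 0, a separate scale for each gene) of the 10 core clock genes in WT liver, KO liver, WT brain and KO brain (x axis). Points are libraries with the mouse letter above them, blue for WT and orange for KO, long lines are means and bars the SD of 3 libraries. In liver the 3 KO libraries lie wholly above the WT libraries for Arntl and wholly below them for Per2 and Cry2, and WT mouse B lies near the KO mice for Per3, Nr1d1 and Nr1d2.

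The first question was whether the members differ between liver and brain. Of the 10, 7 passed the test over all 12 libraries (edgeR's quasi-likelihood test, adjusted p under 0.1), beside 84.9% of the 18944 genes tested, so a call by itself sets no member apart. Arntl and Nr1d1 were higher in liver, whereas Npas2, Per1, Per3, Cry2 and Nr1d2 were higher in brain. The median log2 difference of all genes was -0.22 (-0.32 with RLE size factors in place of TMM), and each value below can be read against that shift.

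Among the activators, Arntl, the obligate partner of CLOCK and NPAS2, was higher in liver by 0.73 on the log2 scale (SE 0.14, adjusted p = 0.000221). The difference within a mouse, liver minus brain in log2 CPM, was 1.07, 1.01 and 0.96 in KO mice A, C and F and 0.87, -0.05 and 0.36 in WT mice B, D and E. Liver was thus above brain in 5 of 6 mice, and WT mouse D had the 2 organs at nearly the same level. Npas2, the CLOCK relative that is abundant in forebrain, was lower in liver by 0.59 (SE 0.21, adjusted p = 0.0208), and lower within 5 of 6 mice, with 0.01 in WT mouse B the exception, and the call was lost without mice E and F, which lack Y-linked transcripts (-0.49, adjusted p = 0.159). Clock itself differed by -0.12 (95% interval from -0.36 to 0.13, adjusted p = 0.352), but it was called lower in liver with RLE size factors (adjusted p = 0.0867) and by DESeq2 (adjusted p = 0.0756).

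The 3 Per genes, which encode the partners of CRY in the repressor complex, did not share a pattern. Per3 showed the widest difference of all members, lower in liver by 2.32 (SE 0.41, adjusted p = 0.000209). Within a mouse it was lower in liver by amounts that ran from -3.86 in WT mouse B to -0.56 in WT mouse E, with a median of -2.94. Per1 was lower in liver by 1.27 (SE 0.27, adjusted p = 0.00073) and in every mouse, from -3.21 in KO mouse C to -0.62 in KO mouse A. Per2 differed by -0.31 (95% interval from -0.80 to 0.17, adjusted p = 0.211) and was higher in liver in 3 of 6 mice, and without mouse A it was called lower in liver (-0.47, adjusted p = 0.056).

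Of the cryptochromes, which carry most of the repression of the loop, Cry2 was lower in the liver of all 6 mice, by between -1.43 and -0.61, and by 1.06 in the fit (SE 0.12, adjusted p = 1.717e-06). Cry1 differed by 0.35 (95% interval from -0.15 to 0.85, adjusted p = 0.174), higher in liver in 3 of 6 mice. It was called higher in liver without mouse F (0.50, adjusted p = 0.0499) and without both E and F (0.54, adjusted p = 0.0331).
The REV-ERB pair split: Nr1d1 was higher in liver in all 6 mice, by between 0.23 and 1.59 (0.91 in the fit, SE 0.27, adjusted p = 0.00676), and Nr1d2 was lower by 0.51 (SE 0.17, adjusted p = 0.0112), in 5 of 6 mice. With mouse as a replicate block, which pairs both organs of an animal, 7 members were called again beside 83.8% of all genes.

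**Figure D2:**
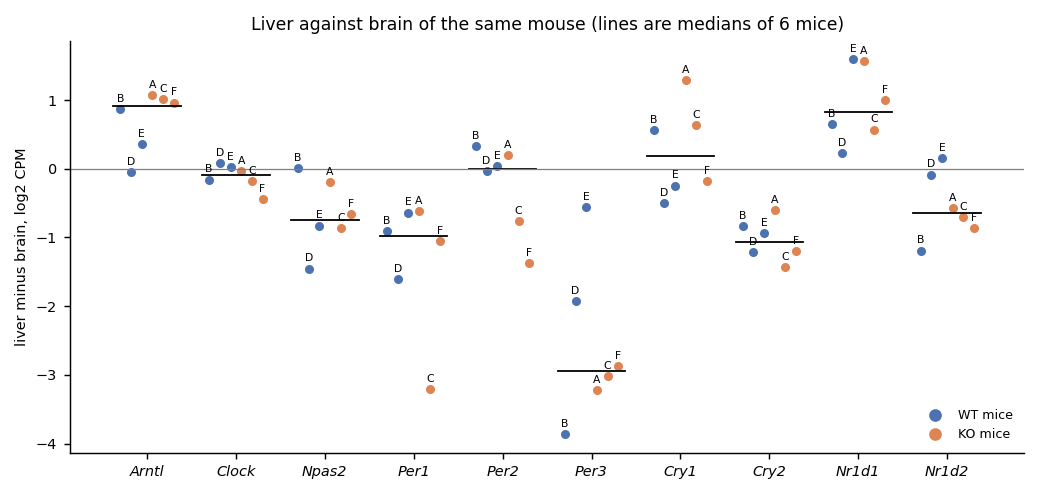
Liver minus brain of the same mouse in log2 CPM with TMM over 12 libraries (y axis) for each member (x axis). Points are mice with their letters, blue for WT and orange for KO, and lines are medians of 6 mice. All 6 mice lie below 0 for Per1, Per3 and Cry2 and above 0 for Nr1d1, while the 6 mice of Per2 and of Cry1 lie 3 above and 3 below.

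The second question was whether loss of Mettl5 changed the members in liver. None of the 10 passed (edgeR's quasi-likelihood test, adjusted p under 0.1), beside 0.0% of the 14075 genes tested, that is no gene at all. At an unadjusted p under 0.05, 3 members stood out (Per2, Cry2 and Arntl), beside 7.33% of all genes, and in the same 3 the genotypes did not overlap, which 12.9% of all genes showed. DESeq2 called 1 member, Per2, beside 0.631% of all genes. The members had a median log2 fold change of -0.44, with 3 higher and 7 lower, against -0.0024 over all genes, of which 50.4% were lower. That median ran from -0.57 (without mouse B) to -0.23 (without mouse E) with 1 mouse left out, and was -0.14 without mice E and F.

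Per2, a period gene that also responds to glucocorticoids, measured 12.8, 18.6 and 14.3 CPM in the livers of WT mice B, D and E and 6.81, 8.56 and 4.64 CPM in those of KO mice A, C and F. Every KO liver was below every WT liver. The fitted log2 fold change was -1.19 (SE 0.24, 95% interval from -1.74 to -0.64, unadjusted p = 0.00085), and the adjusted p of 0.383 missed the threshold. Per2 was called by DESeq2 (adjusted p = 0.00762), with the Y-linked counts as a covariate (adjusted p = 0.0484) and without a filter on low counts (adjusted p = 7.489e-06). With any 1 mouse left out its log2 fold change stayed between -1.42 and -0.98 and its adjusted p between 0.274 and 0.985.

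Cry2 was lower by a smaller amount, with 29.5, 32.0 and 33.7 CPM in WT mice B, D and E and 27.2, 24.4 and 24.1 CPM in KO mice A, C and F. The groups did not overlap, and the fold change of -0.33 (SE 0.12, 95% interval from -0.61 to -0.05) gave an adjusted p of 0.587. Arntl measured 45.2, 24.5 and 38.4 CPM in WT mice B, D and E and 56.3, 46.0 and 51.7 CPM in KO mice A, C and F. The lowest KO liver, that of mouse C, was just above the highest WT liver, that of mouse B, and the fold change of 0.51 (SE 0.21, 95% interval from 0.03 to 0.99) had an adjusted p of 0.659, or 0.0832 without the filter on low counts. It ran from 0.30 without mouse D (95% interval from -0.07 to 0.67) to 0.71 without mouse B.

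Measured beside these 3 genes, other properties of the liver libraries also split by genotype. Mitochondrial rRNA took between 10.7% and 16.9% of the counts in WT livers and between 7.36% and 8.66% in KO livers. The slope of log2 expression on gene GC content, in log2 units per 10% GC, ran from -0.13 to -0.03 in WT and from 0.0080 to 0.11 in KO livers. With an offset for GC content the fold changes became -1.24 for Per2, -0.38 for Cry2 and 0.52 for Arntl, and without mitochondrial genes Per2 was at -1.19.

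The other 7 members overlapped between genotypes in liver. Per3 measured 1.49, 6.92 and 16.2 CPM in WT mice B, D and E against 1.93, 2.52 and 3.39 CPM in KO mice A, C and F. WT mouse B was thus the lowest of all 6 livers and WT mouse E the highest. The fold change was -1.64 with an SE of 0.81 (95% interval from -3.65 to 0.36, adjusted p = 0.756).

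Both REV-ERB genes also overlapped through WT mouse B. Nr1d1 measured 23.7, 39.9 and 60.6 CPM in WT mice B, D and E and 28.8, 32.5 and 23.2 CPM in KO mice A, C and F (log2 fold change -0.56, SE 0.32, adjusted p = 0.793). Nr1d2 measured 30.4, 68.8 and 63.0 CPM in WT mice B, D and E and 40.8, 38.4 and 31.4 CPM in KO mice A, C and F (-0.55, SE 0.29, adjusted p = 0.766, or 0.075 without the filter). In both genes WT mice D and E were the 2 highest livers, and WT mouse B lay within or below the KO mice.

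Npas2 ran the other way, with 20.3, 6.47 and 14.4 CPM in WT mice B, D and E and 22.9, 15.8 and 18.1 CPM in KO mice A, C and F, so that WT mice D and E were the 2 lowest livers (0.46, SE 0.39, adjusted p = 0.874). Cry1 spread over both genotypes, from 11.8 to 25.1 CPM in WT and from 12.7 to 35.3 CPM in KO livers (0.48, SE 0.44, adjusted p = 0.881). Per1 was at 3.92 CPM in the liver of KO mouse C, while the other 5 livers ran from 12.1 to 20.9 CPM (-0.68, SE 0.46, adjusted p = 0.835). Clock was the steadiest gene of the activator arm, from 92.2 to 103 CPM in WT and from 82.5 to 117 CPM in KO livers (-0.01, 95% interval from -0.36 to 0.34, adjusted p = 0.994).

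Single mice weighed on these values. Per3 ran from -2.14 without mouse B to -0.67 without E, Nr1d1 from -0.84 without B to -0.17 without E, and Nr1d2 from -0.84 without B to -0.34 without D. Npas2 ran from 0.13 without D to 0.86 without B, Cry1 from 0.097 without A to 0.86 without B, and Per1 from -1.01 without F to -0.29 without C. No sign turned in these 6 genes with 1 mouse left out.

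**Figure D3:**
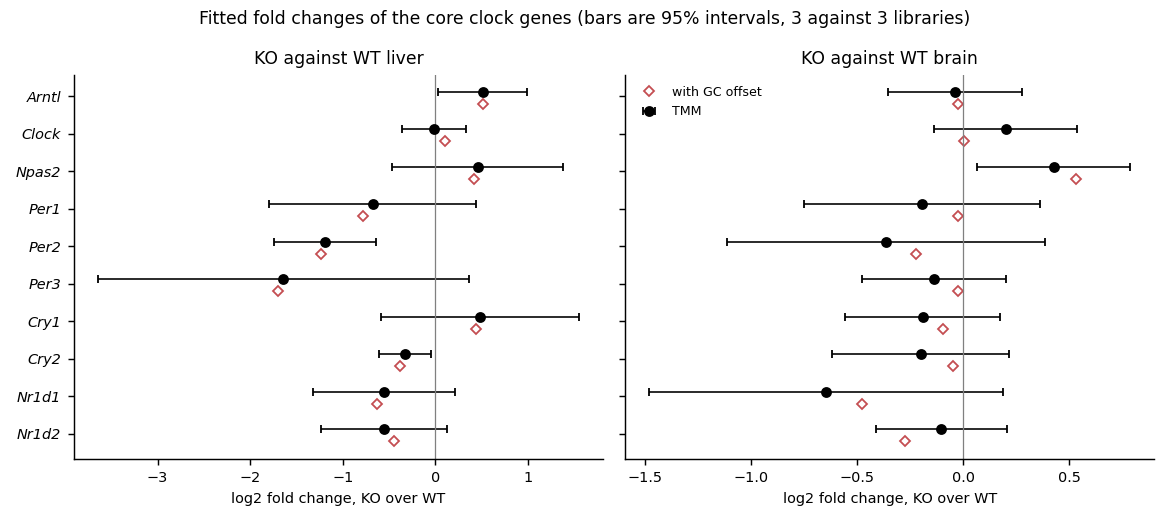
Fitted log2 fold change of KO over WT (x axis, separate scales) for each member in liver (left) and brain (right), 3 against 3 libraries. Black points are the edgeR fit with its 95% interval, and open red diamonds the fit with an offset for GC content, shown without interval. In liver the intervals of Per2, Cry2 and Arntl leave out 0, and in brain only that of Npas2 does, all before adjustment for the genes tested. The offset moves Clock, Per1 and Cry2 in brain towards 0, and Npas2 and Nr1d2 (from -0.10 to -0.28) away from it.

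In brain, none of the 10 members passed either, beside 0.064% of the 17188 genes tested (11 genes), and DESeq2 called none beside 0.847%. At an unadjusted p under 0.05 there was 1 member, Npas2, beside 11.0% of all genes, and it was also the only member whose groups did not overlap, which 16.3% of all genes showed. Npas2 measured 32.7, 28.0 and 40.7 CPM in the brains of WT mice B, D and E and 42.8, 46.7 and 46.9 CPM in those of KO mice A, C and F. The fold change was 0.43 (SE 0.16, 95% interval from 0.07 to 0.79, adjusted p = 0.404), and 0.53 with the GC offset (adjusted p = 0.257). It ran from 0.30 without mouse D to 0.59 without mouse E.

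Marker genes of brain regions moved with genotype in the same libraries. The 6 olfactory bulb markers summed to between 5.54 and 11.9 CPM in WT and between 35.8 and 53.8 CPM in KO brains, with 5 of the 6 wholly higher in KO. The 6 cerebellum markers summed to between 722.2 and 1129 CPM in WT and between 176.3 and 482.3 CPM in KO brains, with all 6 wholly lower, and the 6 choroid plexus markers to between 225.5 and 387.7 CPM in WT and between 113.6 and 182.0 CPM in KO, with 4 wholly lower. Mitochondrial rRNA took between 7.63% and 17.7% of the counts of WT and between 21.4% and 31.6% of those of KO brains. The sums of the suprachiasmatic markers, given above, did not overlap between the genotypes either, but only 1 of the 6 genes was wholly lower in KO. Since a KO liver reached a sum within the WT brain range, these sums do not measure that nucleus alone. The part of these shifts in the values of Npas2 and of the other members was not tested.

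The other 9 members overlapped between KO and WT brain, with fold changes from -0.65 (Nr1d1, SE 0.36, adjusted p = 0.524) to 0.20 (Clock, SE 0.15, adjusted p = 0.611) and a median over the 10 of -0.16, against -0.0016 over all genes. With the GC offset that median was -0.036 and Clock was at 0.0053, and with 1 mouse left out the median ran from -0.20 (without F) to -0.060 (without A). Nr1d1 ran from -1.08 without mouse C to -0.27 without D, Per2 from -0.63 without C to -0.074 without A, and Clock from 0.096 without D to 0.33 without B. Arntl, which stood out in liver, measured between 39.7 and 47.4 CPM in WT and between 36.9 and 43.7 CPM in KO brains, a difference of -0.04 (95% interval from -0.36 to 0.28). Nr1d2 and Cry1 stayed within 89.9 to 114.6 CPM and 22.3 to 32.4 CPM over the 6 brains.

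What several members did share in brain was the order of the mice. Per1, Per2 and Cry2 each ranked the 6 brains alike, mouse D highest, then C, E, F, B and A. Per1 measured 42.9, 64.7 and 51.7 CPM in the brains of WT mice B, D and E and 30.5, 59.7 and 48.8 CPM in those of KO mice A, C and F. Per2 measured 16.5, 29.9 and 22.1 CPM in WT mice B, D and E against 9.67, 23.6 and 19.8 CPM in KO mice A, C and F, and Cry2 85.5, 117.0 and 102.3 CPM against 67.8, 106.5 and 90.9 CPM. Mouse D, a WT, and mouse A, a KO, stood at the ends, and mouse C, a KO, was second, so the order crossed the genotypes.

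Nr1d1 followed nearly the same order (D, C, E, B, F, A), from 53.5 CPM in WT mouse D to 15.8 CPM in KO mouse A. Clock had mice A, B and F highest and D lowest, from 196.1 down to 136.8 CPM. The slope on GC content moved with these values: 0.36 in the brain of mouse D, 0.12 in E, 0.086 in C, -0.12 in B, -0.15 in F and -0.30 in A. Per1 (59.4% GC over its longest GENCODE transcript), Nr1d1 (56.8%), Cry2 (55.6%) and Per2 (54.3%) are richer in GC than the other 6 members, and Clock is the poorest at 40.9%.

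The values were also corrected for GC content, by a lowess curve for each library and not by the straight slope. The distance from the highest to the lowest brain library fell from 0.52 to 0.084 in log2 CPM for Clock, from 1.08 to 0.51 for Per1 and from 0.79 to 0.34 for Cry2. For Nr1d1 it was 1.75 before and 1.25 after, in the same order of mice, and for Per2 1.61 and 1.23. The single order shared by Per1, Per2 and Cry2 gave way to separate ones: the brains ran D, C, F, E, B, A for Per2, F, C, D, E, B, A for Per1 and C, D, F, E, B, A for Cry2, and B, C, D, A, F, E for Clock. In the first 3 genes mice C, D and F were the 3 highest in some order, and E, B and A followed in that order. Npas2 (0.74 and 0.96) and Nr1d2 (0.35 and 0.66) spread wider after the correction.

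**Figure D4:**
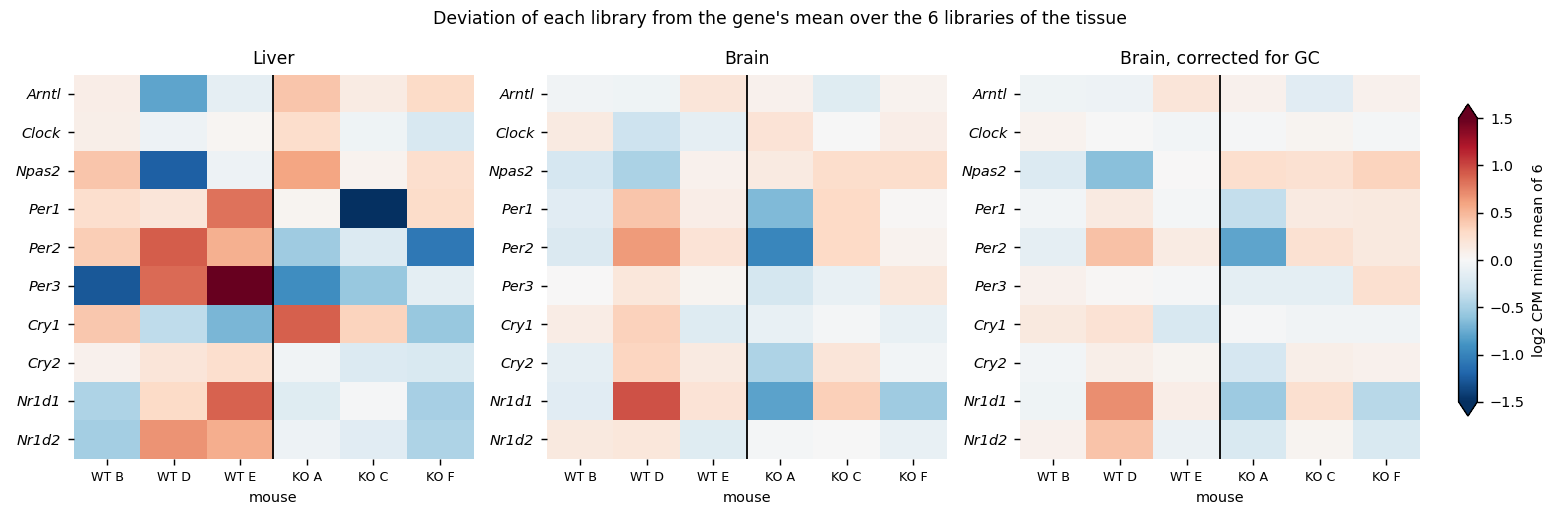
Log2 CPM of each library minus the gene's mean over the 6 libraries of the tissue (colour, red above and blue below the mean, saturated at 1.5) for the 10 members (rows) in each mouse (columns, WT left and KO right of the line), in liver, in brain, and in brain after correction for GC content. In liver, Arntl and Npas2 are lowest in WT mouse D, where Per2 and Nr1d2 are highest, and the brain pattern of mice D and A weakens after the correction.

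Most members spread more between livers than between brains: 7 of the 10 had the wider range in liver, while Clock (0.50 in liver and 0.52 in brain), Cry2 (0.48 and 0.79) and Nr1d1 (1.38 and 1.75) had it in brain. The range over the 6 livers had a median of 1.48 in log2 CPM over the 10 members, against 0.711 over all genes tested, and reached 3.34 for Per3, 2.38 for Per1, 1.97 for Per2 and 1.81 for Npas2. Only Clock and Cry2 stayed under the median of all genes. In brain the median range of the members was 0.639, below the 0.767 of all genes. After GC correction all 10 members had the wider range in liver, including Clock (0.42 in liver and 0.084 in brain), Cry2 (0.58 and 0.34) and Nr1d1, and the medians were 1.52 and 0.70 in liver and 0.485 and 0.682 in brain. No test of this difference was made, since the 10 members are not independent of each other.

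Whether loss of Mettl5 acted differently on a member in liver and in brain was tested by subtracting the effect in brain from that in liver. None of the 10 passed (edgeR's quasi-likelihood test), beside 0.0% of 18944 genes, and none had an unadjusted p under 0.05, beside 10.6% of all genes. DESeq2 called no member, beside 1.07% of all genes. The nearest was Arntl, with 0.58 (SE 0.28, 95% interval from -0.02 to 1.17, adjusted p = 0.489), followed by Per3 with -1.46 (SE 0.79, adjusted p = 0.549) and Per2 with -0.79 (SE 0.45, adjusted p = 0.562). With mouse as a replicate block the values were 0.62 for Arntl (adjusted p = 0.547) and -0.77 for Per2 (adjusted p = 0.606), with no member called beside 0.359% of all genes. Arntl then had an unadjusted p of 0.0357, beside 8.36% of all genes under 0.05. With the block and the GC offset together, edgeR gave unadjusted p of 0.0164 for Per2 (-0.99) and 0.0343 for Arntl (0.58), beside 7.5% of all genes. With 1 mouse left out the value ran from 0.41 (D) to 0.83 (B) for Arntl, from -1.92 (B) to -0.46 (E) for Per3 and from -1.10 (A) to -0.50 (F) for Per2. The intervals of all members are wide, and the tests do not show that the effects were alike in both organs.

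Liver and brain of a mouse were then set against each other across the 6 mice, in log2 CPM with a prior count of 2. Pearson's r ran from -0.24 (Per1) to 0.65 (Npas2), and none of the 10 relations passed (exact permutation test over 720 pairings, two-sided, lowest Benjamini-Hochberg value 0.861 for r and 0.604 for rho). For Npas2, r was 0.65 (p = 0.15, exact permutation test) and rho 0.37 (p = 0.497), and r turned to -0.53 once the 2 mice farthest from the median in liver, A and D, were left out, so that it rested on them. Nr1d1 had r = 0.57 (p = 0.247, exact permutation test) and rho = 0.66 (p = 0.175), and 0.75 without mice E and F.

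The remaining relations between organs were weaker. Per2, Per3 and Clock had r between 0.37 and 0.49, Cry2 0.28 and Arntl 0.17, while Cry1 (-0.0041) and Nr1d2 (-0.0058) lay close to 0. Per1 turned from -0.24 to 0.62 without mice C and E, and Arntl from 0.17 to -0.45 without A and D. With the GC correction r became 0.54 for Nr1d2, 0.27 for Cry1, 0.084 for Per3 and -0.027 for Cry2, and again none passed (lowest Benjamini-Hochberg value 0.829 for r). In liver, mice D and E were the 2 highest for Per3, Nr1d1 and Nr1d2. In brain, mouse D was highest for the 3 genes, which in liver it was only for Nr1d2, and mouse E was at rank 3 for Per3 and Nr1d1 and last for Nr1d2. After the GC correction mouse D was at rank 3 for Per3 in brain and still highest for Nr1d1 and Nr1d2, and mouse E was at rank 4 for Per3 and Nr1d2.

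Within a tissue, Arntl was set against each of the other members, 18 relations in all. In liver its closest companion was Npas2, with r = 0.97 (p = 0.00972, exact permutation test, Benjamini-Hochberg value 0.175) and rho = 0.83 (p = 0.0583). Against Per2 the liver values were r = -0.83 (p = 0.0347, exact permutation test, Benjamini-Hochberg value 0.242) and rho = -0.94 (p = 0.0167), and against Nr1d2 r = -0.78 (p = 0.0403) and rho = -0.49 (p = 0.356). None passed the adjustment. Without mice A and D, r was 0.61 for Npas2, -0.89 for Per2 and -0.87 for Nr1d2. In brain, r ran from -0.69 (Nr1d2, p = 0.131, exact permutation test) to 0.19 (Npas2, p = 0.701). These rested on few mice too: without C and E, r in brain was 0.96 for Npas2, 0.67 for Clock (0.07 over all 6 mice), -0.93 for Cry1 (-0.59) and -0.95 for Nr1d2. With the GC correction and all 6 mice, Clock was at -0.83 with Arntl in brain (p = 0.05, exact permutation test, Benjamini-Hochberg value 0.225). Corrected Clock ran over only 0.084 in log2 CPM there, so this r rests on very small differences.

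The relations were also taken with the mean of each genotype removed. Values were then exchanged only within a genotype, which leaves 36 pairings and a smallest p of 0.0278. Npas2 had r = 0.997 with Arntl in liver at that p (exact permutation test, Benjamini-Hochberg value 0.25), and 0.97 without mice B and D. Per2 went to -0.62 (p = 0.139, exact permutation test) and Nr1d2 to -0.69 (p = 0.444, exact permutation test). In brain, Cry1 reached the same p with r = -0.78 against Arntl (exact permutation test, Benjamini-Hochberg value 0.25). None of the 18 passed the adjustment, but with so few pairings even relations at the smallest p stayed at 0.25, so this count decides nothing.

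The genes most like Arntl were sought among 12574 genes tested in both tissues, by Pearson's r of log2 CPM centred on the tissue mean over the 12 libraries, as a description. The highest were Ankrd50 (0.92), Tmem136 (0.92), Ccsap (0.89), Hist1h3i (0.88) and Itpka (0.87), and Npas2 was seventh at 0.86. The lowest were Azin1 (-0.88), Gins3 (-0.86), Ighm (-0.85), Cxcr4 (-0.81) and Parl (-0.81), and Nr1d2 was at -0.78. For Nr1d1 the highest were Ccdc93 (0.91), Col11a2 (0.91), Chek2 (0.91), G6pc3 (0.90) and Ubash3b (0.90), with Cry2 the closest member at 0.84, and the lowest were Rnf138 (-0.91), Mios (-0.88), Ap3b1 (-0.87), 2610301B20Rik (-0.87) and Nsmce3 (-0.86). The 12 points are libraries of 6 animals, and nothing on shared control was tested.

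A further 2 lists give the surroundings of the core loop: 20 regulators (ROR receptors, kinases, ubiquitin ligases and other partners) and 16 output genes. In liver edgeR called none of either list with the filter on low counts, beside 0.0% of all genes. Without the filter it called Bhlhe40, Ciart and Tef (beside 1.63% of all genes), and with the Y-linked covariate Bhlhe40 (beside 0.583%), each lower in KO. Of 18 regulators tested 7 were higher and 11 lower, with a median of -0.017, and of 16 output genes 5 were higher and 11 lower, with a median of -0.20, beside 50.4% lower and a median of -0.0024 over all genes. With the GC offset the regulators counted 11 higher and 7 lower (median 0.022), so the sign of their median depended on it. DESeq2 called 1 of each list, Bhlhe40 and Dbp, both lower in KO liver, beside 0.631% of all genes. The genotypes did not overlap in 2 of 18 regulators and 4 of 16 output genes, beside 12.9% of all genes.

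Bhlhe40, a repressor that competes for E-boxes, measured 129.9, 157.0 and 92.9 CPM in the livers of WT mice B, D and E and 63.7, 45.0 and 52.8 CPM in those of KO mice A, C and F. The groups did not overlap, and the log2 fold change was -1.23 (SE 0.21, adjusted p = 0.365; DESeq2 adjusted p = 8.231e-05). Other regulators among those with the smallest p in liver were Csnk1d, a kinase of PER (0.18, adjusted p = 0.803), and Bhlhe41 (-0.96, adjusted p = 0.834).

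Dbp, the D-box activator and a direct target of the loop, also had WT mice D and E highest. It measured 1.49, 12.5 and 11.6 CPM in WT mice B, D and E and 1.69, 2.35 and 0.991 CPM in KO mice A, C and F, so that WT mouse B lay among the KO mice (-2.34, SE 0.81, adjusted p = 0.598; DESeq2 adjusted p = 0.0146). In 3 of the 16 output genes, however, all 3 KO livers were below all WT livers, mouse B included, beside 12.9% of all genes that did not overlap in either direction. They were Nampt, the enzyme of NAD salvage (-0.52, SE 0.13, adjusted p = 0.428), Hlf, a D-box factor (-0.46, SE 0.13, adjusted p = 0.465), and Usp2, a deubiquitinase (-1.18, SE 0.36, adjusted p = 0.482).

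In brain, 20 regulators (3 higher, 17 lower, median -0.14) and 15 output genes (3 higher, 12 lower, median -0.23) were tested, beside 50.2% lower and a median of -0.0016 over all genes. None was called by edgeR (0.064% of all genes) or DESeq2 (0.847%), and without the filter edgeR called 2 regulators and 2 output genes, all lower in KO (beside 3.15%). KO lay wholly below WT in 4 of the regulators and 3 of the output genes, beside 16.3% of all genes that did not overlap in either direction. With the GC offset the medians were -0.13 and -0.12. Among the regulators with the smallest p-values were Rora, the ROR receptor abundant in cerebellum (-0.38, SE 0.13, adjusted p = 0.392), Timeless (-0.66) and Bhlhe40 (-0.47). Rora was wholly lower in KO brain, beside the cerebellum markers, and the part of these in its value was not tested. Among the output genes the smallest were those of Tspan4 (-0.80, SE 0.27, adjusted p = 0.386), Usp2 (-0.49, SE 0.17, adjusted p = 0.394), Alas1, the first enzyme of haem synthesis (-0.40), and Lonrf3 (-0.33). Usp2 was the only one of the 33 list genes tested in both tissues (3.03%) whose KO libraries lay wholly below WT in both liver and brain, beside 0.286% of all 12574 genes tested in both (36 genes).

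The members lie on 8 chromosomes of mm10, each away from Mettl5 apart from Cry2, which shares chromosome 2 with it. Of the 10, 3 have exons that touch a gene on the opposite strand: Nr1d1 with Thra over 263 bases, Cry2 with D930015M05Rik over 295 and Arntl with Gm45355 over 33. Reads were counted by strand, which is meant to keep these partners apart, but leakage between strands was not tested. In brain Thra had from 4472 to 11656 counts and Nr1d1 from 194 to 1066, both highest in mouse D and lowest in mouse A. Per3 lies within the span of Camta1 on the same strand but shares no exon base with it. Camta1 had from 2201 to 4923 counts in brain and from 49 to 95 in liver. In total RNA, unspliced Camta1 reads over Per3 exons would count as Per3, and their part in the difference of Per3 between the organs was not tested.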

How the data were processed

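Liver and brain of 6 mice gave 12 libraries. Per the labels and the methods, the authors made stranded total RNA libraries, sequenced them single-end, trimmed reads with Trimmomatic, aligned them to mm10 with STAR 2.7.3a and counted reads per gene over exons with featureCounts by strand. FastQC 0.11.5 and bcl2fastq are also in the submitters' processing notes. The deposited values are raw counts with no normalisation. The members, the lists and the rule for named genes (the 10 members, Mettl5, the 4 list genes of smallest p per tissue, and the 5 most and 5 least like Arntl and Nr1d1) were chosen with earlier results of these data known. Some genes that this rule names are not reported here.

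Symbols and GC contents came from GENCODE M21 for 55141 of the 55487 genes. Counts were fitted with edgeR 4.0.16 in R 4.3.3 (TMM, filterByExpr, robust quasi-likelihood F test, Benjamini-Hochberg over all genes tested, call at adjusted p under 0.1): each tissue on its 6 libraries, and all 12 libraries for differences between tissues. SE were computed from F. DESeq2 1.42.0, RLE size factors, other filters, left-out mice, a Y-linked covariate and a replicate block were the alternatives. An offset for GC content (lowess per library) was added after seeing the data. Mice E and F had at most 20 Y-linked and at least 9446 Xist counts in a library. The other mice had at least 2112 Y-linked and at most 19 Xist counts. Correlations used log2 CPM with an exact permutation test, over pairings within a genotype where genotype means were removed. Library totals ran from 14403309 to 21623180 counts, which limits low members such as Per3 in liver.

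The labels give the liver and brain of a mouse the same letter, so the letter pairs the tissues by animal. Across 12574 genes, deviations of the 2 libraries of a mouse from their group means had r from -0.0389 to 0.14. The study's text speaks of pairs of KO and heterozygous mice, but no label tells which KO mouse goes with which WT mouse, so genotypes were compared without pairing. Where labels do not say that mice were handled separately, p-values measure only the spread between these samples.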

Additional observations from a re-analysis of the deposited data

How the results depend on the processing

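For the members, the number called in KO against WT liver was 0 in the main analysis and 3 without a filter on low counts, 1 with DESeq2 and 1 with the Y-linked covariate; in brain and for liver minus brain it stayed at 0 under every alternative run, the replicate block included, and for liver against brain it stayed within 1.5 times of 7. The number of correlations past the adjustment stayed at 0 in both families, though with genotype means removed the few pairings left little room for any other count. Among all genes, the calls in liver (0, with 1032 at an unadjusted p under 0.05) became 443 without a filter, 171 with DESeq2, 29 without mice E and F, 82 with the Y-linked covariate and 3 with all 12 libraries in 1 fit, and 0 to 87 with 1 mouse left out (87 without mouse D). The calls in brain (11) became 1000 without a filter, 269 with DESeq2, 0 without mice E and F (tested by edgeR on 4 brains) and 20 with the GC offset, and 2 to 23 with 1 mouse left out. Those for liver minus brain (0, with 2004 at an unadjusted p under 0.05) became 1 with RLE size factors, 183 without a filter, 369 with DESeq2, 1 without mitochondrial genes, 6 with the Y-linked covariate, 68 with the replicate block and 0 with replicate block and GC offset together, and 0 to 86 with 1 mouse left out (86 without mouse D). The cause of these changes was not tested. With 1 mouse left out an arm holds 2 libraries.

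Signs turned only in values far from the threshold. With 1 mouse left out in turn, the values ran from -0.16 to 0.094 for Clock in liver (-0.013), from -0.088 to 0.057 for Arntl and from -0.42 to 0.029 for Per1 in brain, and, for liver minus brain, from -0.16 to 0.50 for Npas2, from -0.81 to 0.17 for Per1, from -0.31 to 0.094 for Cry2 and from -0.28 to 0.60 for Nr1d1. Clock in liver was also 0.00071 without a filter, 0.11 without mice E and F, 0.015 in 1 fit of 12 libraries and 0.10 with the GC offset, and Arntl in brain 0.017 without E and F. For liver minus brain, Npas2 was -0.018 without E and F, Clock was 0.094, Npas2 -0.11 and Nr1d1 -0.16 with the GC offset, and 0.086, -0.019 and -0.062 with replicate block and GC offset. The correlation of liver and brain turned to -0.53 for Npas2, 0.62 for Per1 and -0.45 for Arntl without the 2 farthest mice, and those of Arntl with Clock in liver (0.26) and Per3 in brain (0.067) to -0.75 and -0.47. With genotype means removed, r of liver and brain was -0.25 for Cry2 (0.28 before) and 0.22 for Cry1 (-0.0041). The r of Arntl was then 0.36 with Per1 in liver (-0.19) and -0.013 with Per3 in brain.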
